A study of Mus musculus with 25 samples.

Results

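Tumours that shrank under an antibody against CTLA-4 were compared with tumours that grew under the same antibody. The 14 tumours, 8 responders and 6 non-responders, were chosen by the outcome in their titles, out of 25 melanomas with an RNA library in all. Each came from cells of the mouse line B2905, also called M4, implanted in a C57BL/6 mouse. This is a single transplanted line, so the tumours share the genotype of their cancer cells and differ in the mouse that carried them. All 14 mice had received anti-CTLA-4 at 10 mg/kg, given 2 times per week for 2 weeks from an average tumour size of 75 mm3. Outcome was read 10 to 11 days after the last dose, and the labels do not tell on which day each tumour was taken. The other 11 libraries were 6 stable tumours of the same antibody arm and 5 tumours under an isotype IgG2b antibody. They entered the estimate of the spread, and values of the stable tumours are set beside those of the responders. Genes of pigment, T cells and proliferation, 113 in all, were set aside, and 74 other gene lists were examined.

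CTLA-4 is a receptor that restrains T cells, and an antibody against it releases that restraint. A melanoma that is being rejected holds, beside its cancer cells, immune cells that enter through blood vessels, the vessel wall itself, and connective tissue. Bulk RNA from such a tumour is a mixture of all of these, so fewer cells of a type and less RNA per cell cannot be told apart.

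Depth and composition differed between the libraries. Total counts ranged from 8.76 to 21.2 M in responders and from 10.9 to 25.4 M in non-responders. Protein-coding genes took 23.8% to 74.3% of counts in 7 responders, 87.0% in responder 5 and 82.9% to 88.4% in non-responders (exact two-sided permutation p = 0.00566, adjusted p = 0.034 over 6 library measures). The lower share of these 7 libraries was known before the test, so its p-value is no independent support. Counts of protein-coding genes alone ranged from 3.15 to 18.4 M in responders and from 9.36 to 21.6 M in non-responders. Levels of genes are given as CPM, counts per M protein-coding counts after the library sizes were scaled by TMM, a normalisation between libraries. Sox10, a transcription factor of melanoma cells, was present in each tumour, at 169 to 410 CPM in the 8 responders and 311 to 424 CPM in the 6 non-responders. Pmel and Mlana, which mark pigmented cells, reached 0.28 to 83.8 CPM and 0 to 8.58 CPM in responders. Keratin and hair markers varied widely within both groups, with a list level (the mean log2 CPM of the tested genes of a list) from -0.97 to 5.98 in responders (median 4.55) and from -0.27 to 4.84 in non-responders (median 2.52). Markers of skeletal muscle did likewise, from 2.82 to 6.11 in responders (median 5.06) and from 3.76 to 6.77 in non-responders (median 6.13). The numbers that the labels give the libraries follow the outcome groups, and the labels do not say what the numbers stand for. If they are an order of processing, that order and outcome cannot be told apart.

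Of 14881 protein-coding genes tested, 3312 were higher in responders (22.3%) and 3827 lower (25.7%), or 48% in either direction, at an adjusted p under 0.05 in edgeR's quasi-likelihood test. Genes under that threshold are termed called. At least a 2-fold change was called for 162 genes, of which 43 were higher and 119 lower. The median log2 fold change over all tested genes was -0.01. With so many genes called, a count within a list is read against these percentages.

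Each pattern was then set against the protein-coding share in 3 ways. First, the share was added as a linear term, under which 866 genes were called higher (5.82%) and 855 lower (5.75%), or 11.6% in all. That fit rests on responder 1, the library with the lowest share: without it, 34 genes were called, 11 higher and 23 lower, although list medians could still be estimated. It called 62 genes when only the 14 tumours were fitted. Second, responder 5 was read alone, since its share lay among those of the non-responders. Last, the 4 responders with the lowest shares were left out, which left 3351 genes called. The stable tumours, whose shares were 83.8% to 89.2%, were fitted against the same non-responders, so their values are given side by side only. Of all genes, 8.18% were called higher and 10% lower in the stable tumours by that fit, and counts for the stable tumours are read against these percentages.

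Genes of mitochondrial respiration were lower in the responders of low share and close to the non-responders in responder 5. Oxidative phosphorylation passes electrons along protein complexes of the inner mitochondrial membrane and uses the resulting gradient to make ATP. Of 76 nuclear genes for its subunits, 75 were called lower, with a median log2 fold change of -0.87. The list level ranged from 4.95 to 6.20 in responders (median 5.13) and from 5.65 to 6.91 in non-responders (median 6.27). Each of the 7 low-share responders lay below every non-responder, and responder 5 lay among them at 6.20. With the share as a covariate the median was -0.56 and 16 genes were called lower. It was -0.22 when responder 1 was also left out. Without the 4 responders of lowest share it was -0.58, and in stable tumours -0.29. These genes are short, with a median exon length of 1.78 kb against 4.34 kb over all tested genes. With trends over length and GC content removed from each library, the median was -0.66.

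Ndufa4, a subunit of the respiratory chain, ranged from 27.2 to 75.8 CPM (median 34.0) in responders and from 79.1 to 301 CPM (median 137) in non-responders. The gene (ENSMUSG00000029632.7) lies on chromosome 6, 11900292 to 11907497, minus strand, of GRCm38. All responders lay below all non-responders, and responder 5 was the highest responder. The log2 fold change was -1.86 (SE 0.26, adjusted p = 2.6e-05), or -1.38 (adjusted p = 0.00935) with the share as a covariate. Atp5b, the catalytic subunit of ATP synthase, ranged from 356 to 930.0 CPM (median 429.5) in responders and from 756 to 2638 CPM (median 1159) in non-responders. Only responder 5 reached the non-responder range, at 930.0 CPM, and the log2 fold change was -1.41 (SE 0.23, adjusted p = 0.000102). In the TCA cycle and fatty acid oxidation too, the 7 low-share responders lay below every non-responder and responder 5 among them. In the TCA cycle, which feeds the respiratory chain, 18 of 21 genes were called lower (median -0.66, or -0.47 with 7 called lower once the share was a covariate, and -0.23 without responder 1 as well). The lowest was Suclg2, a subunit of succinyl-CoA ligase, at -1.27 (SE 0.20, adjusted p = 7.36e-05). In fatty acid oxidation 17 of 24 were lower and 2 higher (median -0.59, or -0.38 with 7 called lower once the share was a covariate, and -0.21 without responder 1 as well). Eci2, an isomerase of that pathway, was at -1.39 (SE 0.20, adjusted p = 4.28e-05). Glycolysis was divided, with 6 of 24 genes higher and 9 lower. Hk3, a hexokinase of myeloid cells, was at 1.41 (SE 0.38, adjusted p = 0.0045), and its call was lost with the share as a covariate, at 1.18 (adjusted p = 0.0889). Without the 4 responders of lowest share it was not called either, at 1.30. Ldhb, a lactate dehydrogenase subunit, was at -1.20 (SE 0.21, adjusted p = 0.000141). The 13 mRNAs of the mitochondrial genome did not move as a block: 3 were called lower. mt-Co3, a subunit of cytochrome c oxidase, was one of them, at -1.81 (SE 0.30, adjusted p = 9.98e-05). The median of those mRNAs was -0.34, and it turned to 0.49 with length and GC trends removed.

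Ribosomal protein and proteasome genes showed the same arrangement of tumours. Ribosomal proteins build the particle that translates mRNA, and the proteasome degrades tagged proteins. Of 79 cytosolic ribosomal protein genes, 74 were called lower (median -0.77, or -0.41 with 6 called lower once the share was a covariate, and -0.15 without responder 1 as well). The list level ranged from 7.49 to 8.91 in responders (median 7.77) and from 8.40 to 9.26 in non-responders (median 8.60), and responder 5 was at 8.91. Of 33 proteasome genes, 31 were called lower (median -0.60). Once the share was a covariate, 0 proteasome genes were called in edgeR, the only tool run with that covariate, although 11 were under 0.05 before adjustment. The median was then -0.28. Without responder 1 as well it was -0.01. In stable tumours it was -0.04. Psma6, a subunit of the proteasome core, ranged from 24.8 to 86.9 CPM (median 31.3) in responders and from 57.2 to 92.7 CPM (median 70.4) in non-responders. Responder 5, at 86.9 CPM, was the only responder within the range of non-responders. Its log2 fold change of -0.85 (adjusted p = 0.00315) was -0.35 (adjusted p = 0.245) with the share as a covariate, and -0.41 and not called without the 4 responders of lowest share.

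Mitochondrial ribosomal proteins had 59 of 75 genes lower and 2 higher (median -0.52, or -0.28 with 4 called lower once the share was a covariate, and -0.10 without responder 1 as well). Translation factors had 26 of 41 lower and 2 higher (median -0.39, or -0.28 with 3 called lower once the share was a covariate, and -0.09 without responder 1 as well). Cytosolic chaperones, which fold proteins, had 21 of 31 lower and 2 higher (median -0.53, or -0.26 with 2 called lower once the share was a covariate, and -0.05 without responder 1 as well). The coat proteins that bud secretory vesicles had 24 of 35 lower and 2 higher. Their median of -0.39 shrank to -0.12 with the share as a covariate, where edgeR called none and 7 were under 0.05 before adjustment, and was 0.03 without responder 1 as well. In the core spliceosome, which removes introns, 30 of 41 genes were lower and 3 higher (median -0.45). With the share as a covariate 14 of these genes were called lower (median -0.27), against 5.75% of all genes. In stable tumours 11 were lower, against 10% of all genes. Snrpf and Snrpg, which belong to the ring of small proteins on splicing RNAs, were at -1.19 and -1.15. Ribosome biogenesis, the assembly of new ribosomes in the nucleolus, had 27 of 43 genes lower. Its median of -0.39 was -0.37 with the share as a covariate, where 11 genes were called lower, and -0.23 without responder 1 as well. The set-aside proliferation genes were lower too (51 of 54), and their part in that result was not tested.

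**Figure D1:**
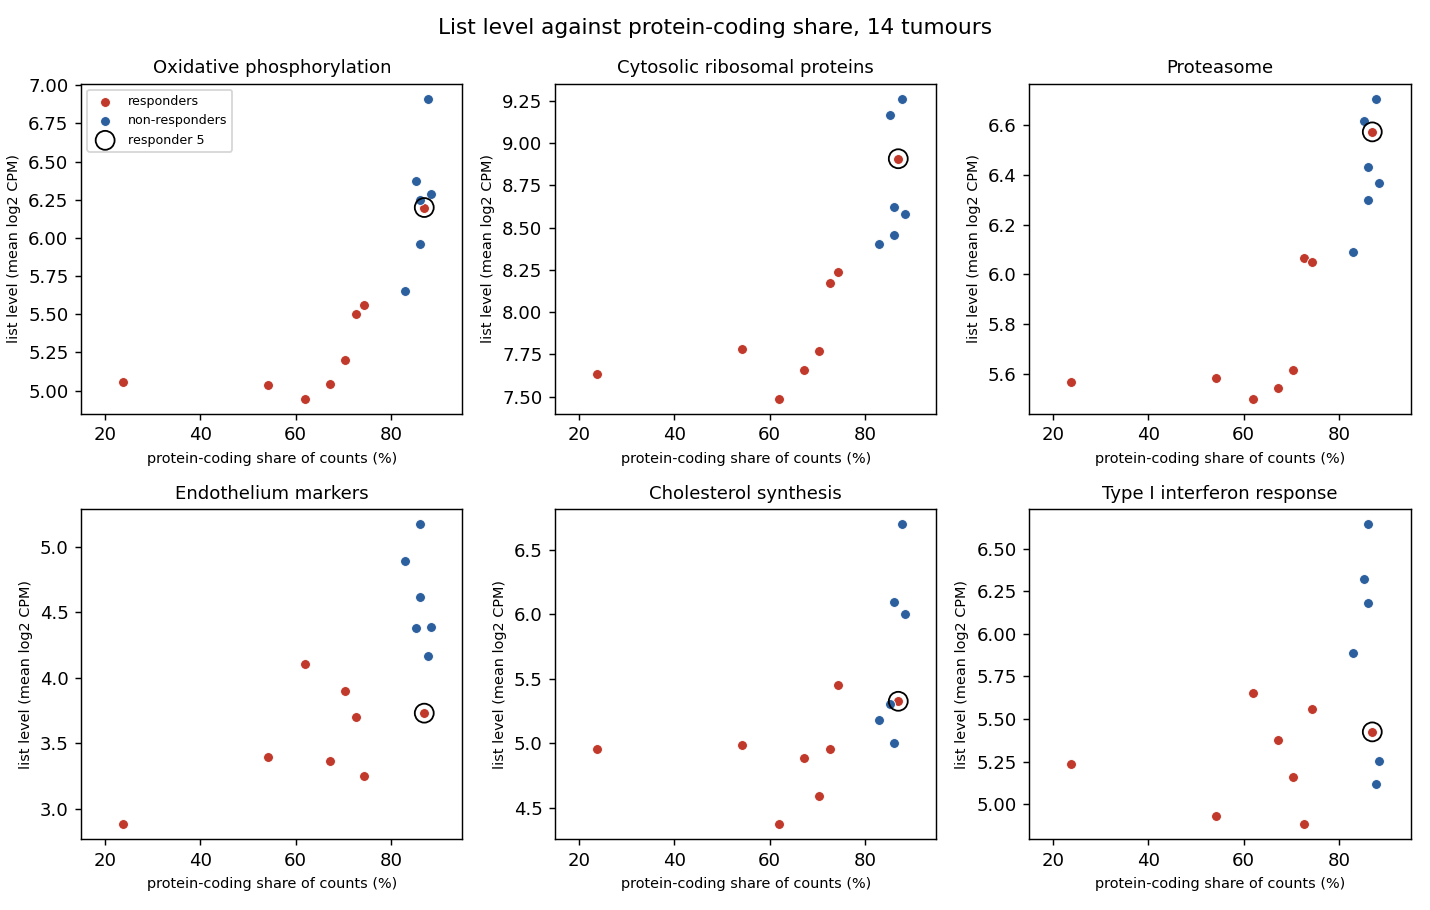
Level of 6 gene lists (mean log2 CPM, vertical) against the protein-coding share of counts in percent (horizontal) in 8 responders and 6 non-responders, 1 point per tumour, with responder 5 ringed. In the upper row responder 5 lies among the non-responders; for endothelial markers, at 3.73, it lies below all of them.

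Genes for chromatin regulators went the other way. Of 49 genes for remodelling complexes, histone methylation and Polycomb, 26 were called higher and 5 lower (median 0.28). They are long, with a median exon length of 9.24 kb. Kmt2d, a histone methyltransferase, ranged from 112 to 1565 CPM (median 899.9) in responders and from 104 to 483 CPM (median 298) in non-responders. The 7 low-share responders were above every non-responder, and responder 5 was the lowest responder at 112 CPM. The fitted log2 change was 1.56 (SE 0.44, adjusted p = 0.006), or 0.54 (adjusted p = 0.507) with the share as a covariate. Kdm6b, a histone demethylase, had the same pattern, at 1.32 (SE 0.38, adjusted p = 0.00701) and 0.50 (adjusted p = 0.484). Neither Kmt2d nor Kdm6b was called without the 4 responders of lowest share, at 1.06 and 0.97. Rnf2, a Polycomb ubiquitin ligase, was lower in all 8 responders than in any non-responder, at -0.71 (SE 0.13, adjusted p = 0.000185). The median of the list was 0.18 with the share as a covariate. It turned to -0.07 without responder 1 as well, and in stable tumours it was -0.06.

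**Figure D2:**
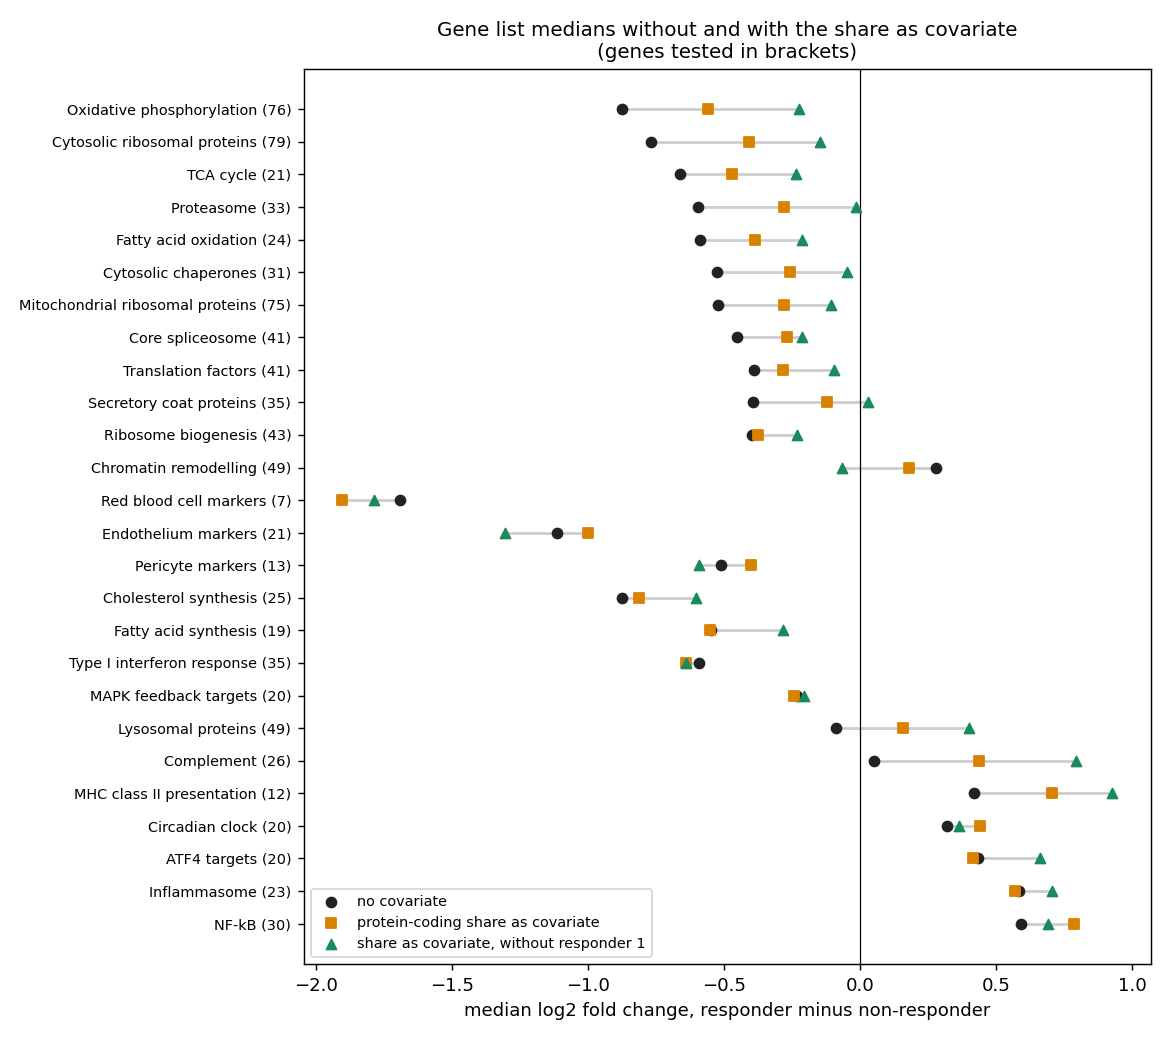
Median log2 fold change, responder minus non-responder, of 26 gene lists (horizontal), without a covariate, with the protein-coding share as covariate, and with that covariate but without responder 1. The respiratory, ribosomal and proteasome lists approach 0 across the 3 fits, while endothelial markers stay at -1.11, -0.9997 and -1.30.

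Genes of blood vessels were lower in responders under each of the readings. Endothelial cells line vessels and pericytes wrap them. Of 21 endothelial markers, 18 were called lower and 1 higher, with a median log2 fold change of -1.11. The list level ranged from 2.88 to 4.10 in responders (median 3.55) and from 4.16 to 5.17 in non-responders (median 4.50). All 8 responders, including responder 5 at 3.73, lay below every non-responder. Once the share was a covariate, the median was -0.9997 and 8 markers were called lower. Without responder 1 as well it was -1.30, and 5 of the 23 genes still called lower among all genes were endothelial markers: Kdr, Tie1, Emcn, Robo4 and Egfl7. Without the 4 responders of lowest share the median was -1.11. In stable tumours it was -0.73, with 11 markers lower.

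Emcn, a sialoglycoprotein of the endothelial surface, ranged from 1.77 to 4.42 CPM (median 2.46) in responders and from 6.08 to 13.6 CPM (median 11.4) in non-responders. The gene (ENSMUSG00000054690.17) lies on chromosome 3, 137341067 to 137432185, plus strand, of GRCm38. The groups did not overlap. The log2 fold change was -2.04 (SE 0.24, adjusted p = 7.34e-06), and -1.84 (adjusted p = 0.00438) with the share as a covariate. Kdr, Tie1, Cdh5, Pecam1 and Angpt2 were chosen after their values were seen. Kdr, the main receptor for VEGF-A on endothelium, ranged from 7.10 to 47.6 CPM (median 18.8) in responders and from 46.1 to 119 CPM (median 70.6) in non-responders. Only responder 7 reached the lowest non-responder, and the log2 fold change was -1.84 (SE 0.27, adjusted p = 5.01e-05). Cdh5, the cadherin of endothelial junctions, ranged from 10.4 to 28.6 CPM (median 17.8) in responders and from 33.9 to 76.9 CPM (median 47.3) in non-responders, with no overlap and a log2 change of -1.48 (SE 0.22, adjusted p = 5.53e-05). Pecam1, an endothelial adhesion molecule that leukocytes also carry, was at -0.70 (SE 0.18, adjusted p = 0.00355), and its call was lost with the share as a covariate, at -0.47 (adjusted p = 0.163). Responder 5, at 45.1 CPM, and 2 other responders lay above the lowest non-responder for Pecam1, and the gene was not called without the 4 responders of lowest share, at -0.42. Angpt2, a ligand that destabilises vessels and is made by endothelium, ranged from 6.80 to 12.6 CPM (median 8.86) in responders and from 18.9 to 63.9 CPM (median 29.1) in non-responders. It changed by -2.02 (SE 0.21, adjusted p = 5.26e-06), and -1.83 (adjusted p = 0.00353) with the share as a covariate. Lyve1, which marks lymphatic endothelium and some macrophages, was uneven among responders: responder 5 stood at 29.0 CPM against 6.23 CPM at the median of responders. Its log2 fold change of -1.86 was -2.48 without that tumour and -0.85 (adjusted p = 0.31) with the share as a covariate. It was not called without the 4 responders of lowest share, at -1.45. Flt1, a VEGF receptor, was the endothelial marker called higher, at 0.67 (SE 0.22, adjusted p = 0.0162), and its call was lost with length and GC trends removed, at 0.52.

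Pericyte and smooth muscle markers had 6 of 13 tested genes lower (median -0.51, or -0.40 with 2 called lower once the share was a covariate, and -0.59 without responder 1 as well). Their level ranged from 4.13 to 4.65 in responders (median 4.50) and from 4.70 to 5.29 in non-responders (median 5.09), again without overlap. Rgs5, a signalling regulator of pericytes, ranged from 18.9 to 43.7 CPM (median 34.9) in responders and from 51.4 to 148 CPM (median 117) in non-responders. Its log2 fold change was -1.78 (SE 0.23, adjusted p = 1.22e-05), or -1.47 (adjusted p = 0.00585) with the share as a covariate. Abcc9, a pericyte potassium channel subunit, was at -1.20 (SE 0.19, adjusted p = 6.68e-05). Red blood cell markers, carried by the blood within a tumour, had 5 of 7 tested genes lower and 1 higher (median -1.69, or -1.90 with 3 called lower once the share was a covariate, and -1.79 without responder 1 as well), out of 10 listed. Hba-a1, an alpha globin, ranged from 1.10 to 4.93 CPM (median 2.97) in responders and from 8.63 to 27.9 CPM (median 15.3) in non-responders. All 8 responders were below all non-responders, with a log2 change of -2.46 (SE 0.42, adjusted p = 0.000153) and -1.96 (adjusted p = 0.0401) with the share as a covariate. The globins have near-identical copies, so their values are uncertain one by one. How much blood remained in each sample was not measured.

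Genes of mast cell proteases were lower as well. Cma1, the chymase of connective tissue mast cells, ranged from 2.07 to 11.3 CPM (median 4.47) in responders and from 17.3 to 47.8 CPM (median 31.3) in non-responders. Levels did not overlap between the groups, and the log2 fold change was -2.53 (SE 0.35, adjusted p = 2.67e-05), or -1.76 (adjusted p = 0.0152) with the share as a covariate. Cpa3, a mast cell carboxypeptidase, was at -2.63 (SE 0.44, adjusted p = 0.000128), and its call was lost with the share as a covariate, at -1.19 (adjusted p = 0.0716). Of 13 eosinophil and mast cell markers tested, 6 were lower and 1 higher (median -0.94, or -0.44 with 2 called lower once the share was a covariate, and -0.21 without responder 1 as well). In the level of that list responder 5, at 2.73, lay above 5 of 6 non-responders.

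Genes that make sterols and fatty acids were lower. Cells build cholesterol from acetyl-CoA by a chain of enzymes whose genes are switched together by the factor SREBP2 when sterol runs low. Of 25 cholesterol synthesis genes, 21 were called lower, with a median of -0.88. The list level ranged from 4.37 to 5.45 in responders (median 4.95) and from 5.00 to 6.70 in non-responders (median 5.65). The ranges overlapped: responder 3 and responder 5 lay above the 3 lowest non-responders. These were non-responders 4, 5 and 6, at 5.00 to 5.30 and so within the responder range. Non-responders 1, 2 and 3 were at 6.01 to 6.70, above every responder. The median was -0.81 with the share as a covariate, where 4 genes were called lower, and -0.60 without responder 1 as well. In stable tumours it was -0.89, with 19 genes lower. Idi1, an isomerase early in the pathway, ranged from 20.1 to 47.6 CPM (median 25.6) in responders and from 34.6 to 217 CPM (median 74.5) in non-responders. The gene (ENSMUSG00000058258.14) lies on chromosome 13, 8885501 to 8892451, plus strand, of GRCm38. The log2 fold change was -1.67 (SE 0.31, adjusted p = 0.000301). Hmgcs1, which makes HMG-CoA, ranged from 60.9 to 139.7 CPM (median 101) in responders and from 102 to 375 CPM (median 173) in non-responders. It changed by -1.04 (SE 0.23, adjusted p = 0.00108), and its call was lost with the share as a covariate, at -0.82 (adjusted p = 0.0703). Nsdhl, a late sterol dehydrogenase, was at -1.49 (SE 0.28, adjusted p = 0.000313). Fatty acid synthesis had 12 of 19 genes lower (median -0.55, or -0.55 with 4 called lower once the share was a covariate, and -0.28 without responder 1 as well). Fads2, a desaturase, was at -1.18 (SE 0.25, adjusted p = 0.000702), and its call was lost with the share as a covariate, at -0.89 (adjusted p = 0.061). Genes of lipid uptake and cholesterol efflux were divided, with 7 of 35 higher and 7 lower.

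Genes induced by type I interferon were lower in responders. Type I interferons alert cells to nucleic acids of viruses or of damaged cells, and their targets restrict translation and replication. Of 35 tested genes of 36 listed, 21 were called lower (median -0.59). The list level ranged from 4.88 to 5.66 in responders (median 5.31) and from 5.12 to 6.64 in non-responders (median 6.04). Of the non-responders, 4 lay above every responder, while non-responder 2 and non-responder 3 lay within the responder range. With the share as a covariate the median was -0.64 and 11 genes were called lower. It was -0.64 without responder 1 as well. In stable tumours it was -0.27, with 1 gene lower, against 10% of all genes.

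Ifit3b, an antiviral protein that shares near-identical sequence with Ifit3, ranged from 4.54 to 17.6 CPM (median 9.65) in responders and from 18.7 to 55.2 CPM (median 34.7) in non-responders. The groups did not overlap. The fitted log2 change was -1.72 (SE 0.29, adjusted p = 0.000121), or -1.44 (adjusted p = 0.0233) with the share as a covariate. Ifit1, which binds foreign RNA ends, ranged from 16.3 to 52.0 CPM (median 31.4) in responders and from 44.3 to 114 CPM (median 89.6) in non-responders, with a log2 change of -1.38 (SE 0.26, adjusted p = 0.00026). Isg15, a ubiquitin-like modifier, ranged from 6.56 to 16.9 CPM (median 9.74) in responders and from 14.0 to 54.3 CPM (median 23.9) in non-responders, with a log2 change of -1.31 (SE 0.27, adjusted p = 0.000631). Ifi27l2a, a small protein induced by interferon, was at -2.03 (SE 0.32, adjusted p = 7.96e-05). Responder 5 lay below every non-responder for Ifit3b, Ifit1 and Isg15, at 12.7, 39.5 and 11.7 CPM. For Ifi27l2a it was the highest responder, at 30.1 CPM, above non-responder 2 and non-responder 3.

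The promoters of the listed genes were searched for the interferon-stimulated response element, read as GAAA, then 2 bases of any kind, then GAAA, on either strand. The window ran from 250 bases before to 50 after the start of the gene, from RefSeq on GRCm38.p6, and overlapping matches were counted. It held the element in 14 of 27 list members with a promoter entry (51.9%), against 4.02% of 16522 genes. The list is made of known interferon targets, so a high percentage follows from its choice and says nothing about these tumours. Ifit3 and Ifit3b have near-identical promoters, as do Oas1a and Oas1g, and each was counted separately. Of the 14 with a match, 11 were called lower (median -0.82), and of the 13 without, 6 were (median -0.31). The difference between these 2 parts of the list was not tested. The sterol regulatory element, read as TCAC, 1 base of any kind and CCAC on either strand, was found in 1 of 17 cholesterol synthesis genes with an entry (5.88%, against 1.42% of all genes), and that gene was Hmgcs1. An NF-kB site, read as GGGA, 2 bases of any kind and TTCC on either strand, was found in 3 of 27 genes of the NF-kB list (11.1%, against 1.63% of all genes). The promoters of 3 interferon targets and of Hmgcs1 are shown 5′ to 3′ on the strand of the gene, with matches in capitals. Ifit3b lies on the plus strand at chr19:34607707-34608006, Ifit1 on the plus strand at chr19:34640639-34640938, Isg15 on the minus strand at chr4:156200769-156201068 and Hmgcs1 on the plus strand at chr13:119690101-119690400.
Ifit3b: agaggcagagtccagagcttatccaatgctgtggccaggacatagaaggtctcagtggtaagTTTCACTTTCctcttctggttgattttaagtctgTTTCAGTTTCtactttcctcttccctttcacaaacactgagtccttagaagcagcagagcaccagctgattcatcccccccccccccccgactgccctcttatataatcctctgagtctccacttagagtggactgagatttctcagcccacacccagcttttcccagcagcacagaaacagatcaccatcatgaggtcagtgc
Ifit1: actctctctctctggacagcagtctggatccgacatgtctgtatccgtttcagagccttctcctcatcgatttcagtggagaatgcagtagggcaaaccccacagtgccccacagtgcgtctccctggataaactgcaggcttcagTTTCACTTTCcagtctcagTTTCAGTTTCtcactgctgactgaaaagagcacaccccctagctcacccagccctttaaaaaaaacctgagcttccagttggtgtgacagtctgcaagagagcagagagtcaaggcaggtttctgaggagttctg
Isg15: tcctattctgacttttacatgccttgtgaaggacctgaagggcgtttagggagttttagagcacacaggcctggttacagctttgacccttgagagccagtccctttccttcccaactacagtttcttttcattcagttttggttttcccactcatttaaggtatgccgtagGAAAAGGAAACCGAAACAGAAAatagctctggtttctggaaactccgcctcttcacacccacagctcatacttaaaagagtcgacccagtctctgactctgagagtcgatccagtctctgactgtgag
Hmgcs1: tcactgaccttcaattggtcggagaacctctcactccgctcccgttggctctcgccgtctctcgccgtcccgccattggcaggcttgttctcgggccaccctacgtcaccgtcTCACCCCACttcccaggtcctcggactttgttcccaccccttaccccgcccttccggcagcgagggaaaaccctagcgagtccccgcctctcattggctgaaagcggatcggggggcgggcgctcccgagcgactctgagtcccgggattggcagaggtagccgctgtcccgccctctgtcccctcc

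Ifit3b and Ifit1 each held the element at 2 places, and Isg15 at 3 overlapping places within 1 run. A match describes these letters only and shows no binding.

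Genes of the NF-kB, inflammasome and JAK-STAT lists were called higher more often than the 22.3% over all genes. NF-kB is the factor through which cytokine and pathogen receptors switch on inflammatory genes, and inflammasomes are platforms that activate interleukin 1 beta. Of 30 NF-kB components and targets, 22 were called higher (median 0.59). The list level ranged from 5.73 to 6.16 in responders (median 5.90) and from 4.39 to 6.10 in non-responders (median 5.22). Of the non-responders, non-responder 6 lay within the responder range and the other 5 lay below every responder. Once the share was a covariate, the median was 0.78 and 15 genes were called higher, against 5.82% of all genes. Without responder 1 as well it was 0.69, and in stable tumours 0.72. Ikbke, a kinase that NF-kB induces, ranged from 63.7 to 154 CPM (median 122) in responders and from 21.1 to 59.8 CPM (median 42.4) in non-responders. All 8 responders were above all non-responders, and the log2 fold change was 1.38 (SE 0.22, adjusted p = 7.46e-05) or 1.07 (adjusted p = 0.0187) with the share as a covariate. Il1b, which encodes interleukin 1 beta, ranged from 18.5 to 73.5 CPM (median 27.5) in responders and from 3.19 to 43.2 CPM (median 6.66) in non-responders. The highest non-responder was non-responder 6, and the log2 fold change was 1.56 (SE 0.46, adjusted p = 0.00794), or 2.64 without it. Tnf, which encodes tumour necrosis factor and was chosen after its values were seen, did not pass the test, at 0.50 (SE 0.40, adjusted p = 0.302), and was called only without non-responder 6, at 1.02.

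The inflammasome and lytic death list had 12 of 23 genes higher (median 0.59, or 0.57 with the share as a covariate). Its level ranged from 4.83 to 5.22 in responders (median 5.03) and from 3.52 to 5.11 in non-responders (median 4.35). Mefv, which encodes the inflammasome sensor pyrin, ranged from 27.6 to 41.9 CPM (median 30.2) in responders and from 1.51 to 21.2 CPM (median 7.28) in non-responders. The gene (ENSMUSG00000022534.14) lies on chromosome 16, 3707218 to 3718097, minus strand, of GRCm38. The responders were all above the non-responders and varied little among themselves. The log2 fold change was 1.87 (SE 0.39, adjusted p = 0.000635), and 1.84 (adjusted p = 0.0209) with the share as a covariate. Nlrp1b, another sensor with close paralogs, was at 1.78 (SE 0.32, adjusted p = 0.000221). Responder 5, at 24.1 CPM of Nlrp1b, lay below the highest non-responder, at 27.0 CPM, and the other responders lay above every non-responder. Of 37 JAK-STAT and SOCS genes, 12 were higher and 2 lower (median 0.15, or 0.23 with 8 called higher once the share was a covariate, and 0.30 without responder 1 as well). Cish, a feedback inhibitor of cytokine receptors, ranged from 32.2 to 58.6 CPM (median 38.4) in responders and from 6.10 to 24.8 CPM (median 18.0) in non-responders. Levels did not overlap between the groups, with a log2 change of 1.36 (SE 0.25, adjusted p = 0.000253) and 1.16 (adjusted p = 0.0239) with the share as a covariate. Jak3, the kinase of the common gamma chain receptors, was at 1.42 (SE 0.20, adjusted p = 2.4e-05). Responder 5, at 60.7 CPM of Jak3, lay below non-responder 6, at 66.9 CPM, while the other responders lay above every non-responder.

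Of neutrophil markers 30% and of macrophage markers 21.4% were called higher, against 22.3% over all genes. Csf3r, the G-CSF receptor of neutrophils, ranged from 34.6 to 64.2 CPM (median 43.1) in responders and from 3.78 to 32.1 CPM (median 17.2) in non-responders. All 8 responders exceeded all non-responders, with a log2 change of 1.39 (SE 0.30, adjusted p = 0.000929). Of 10 tested neutrophil markers of 15 listed, 3 were higher (median 1.29). The macrophage markers had 3 of 14 higher and 1 lower (median 0.25). Mertk, an engulfment receptor, was at 0.78 (SE 0.15, adjusted p = 0.000288), with responder 5, at 85.9 CPM, below non-responder 6, at 90.4 CPM. Clec1b, a receptor of platelets that some myeloid cells also carry, ranged from 4.41 to 22.6 CPM in responders, while 5 of 6 non-responders were under 1 CPM. It changed by 3.43 (SE 0.75, adjusted p = 0.000959), or 4.97 without non-responder 6. Of 10 platelet markers, 4 were tested and 2 were higher. The set-aside T cell genes were higher too (17 of 31), and the part of cell number in these lists was not tested. Chemokines and their receptors had 10 of 50 tested genes higher and 1 lower, a share below that over all genes (median 0.41, or 0.74 with 7 called higher once the share was a covariate, and 0.93 without responder 1 as well). Cxcr4, a receptor of leukocytes, was at 1.35 (SE 0.34, adjusted p = 0.00292). Ccl21a, a chemokine of lymphatic vessels, was the gene called lower, at -1.74 (SE 0.58, adjusted p = 0.017), and its call was lost with the share as a covariate, at -0.74 (adjusted p = 0.534). It was not called in the 14 tumours alone or without the 4 responders of lowest share either, at -1.73 and -1.58.

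In the interferon gamma response 23.3% and in MHC class I presentation 25% of genes were called higher, near the 22.3% over all genes. In MHC class II presentation (8.33%) and complement (11.5%) the share was lower. Interferon gamma, made by T cells and natural killer cells, raises MHC molecules on target cells. Of 30 tested interferon gamma response genes, 7 were higher, with a median of 0.11 that ranged from -0.05 to 0.46 as each of the 14 tumours was left out. The list level of non-responders spanned 5.46 to 8.05, which enclosed all 8 responders. Nos2, the inducible nitric oxide synthase, was called, and it ranged from 102 to 426 CPM (median 151) in responders and from 3.58 to 142 CPM (median 15.0) in non-responders. Its log2 fold change was 2.48 (SE 0.60, adjusted p = 0.00222), or 3.75 without non-responder 6. MHC class I presentation had 5 of 20 genes higher (median 0.20), among them its activator Nlrc5 at 0.98 (SE 0.25, adjusted p = 0.00315). Nlrc5 lost its call with the share as a covariate, at 0.53 (adjusted p = 0.228), and without the 4 responders of lowest share, at 0.59. MHC class II presentation had 1 of 12 higher, and this gene was its activator Ciita at 0.84 (SE 0.31, adjusted p = 0.0264), whose call was lost without non-responder 1, 2 or 3, at 0.80, 0.70 and 0.66. Ciita also lost it with the share as a covariate, at 0.72 (adjusted p = 0.21), with length and GC trends removed, at 0.55, and without the 4 responders of lowest share, at 0.67. The median of the class II list was 0.42. That median was 0.71 with the share as a covariate and 1.08 in stable tumours, of whose class II genes 7 were higher. Complement had 3 higher and 2 lower of 26 (median 0.05, or 0.44 with the share as a covariate).

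**Figure D3:**
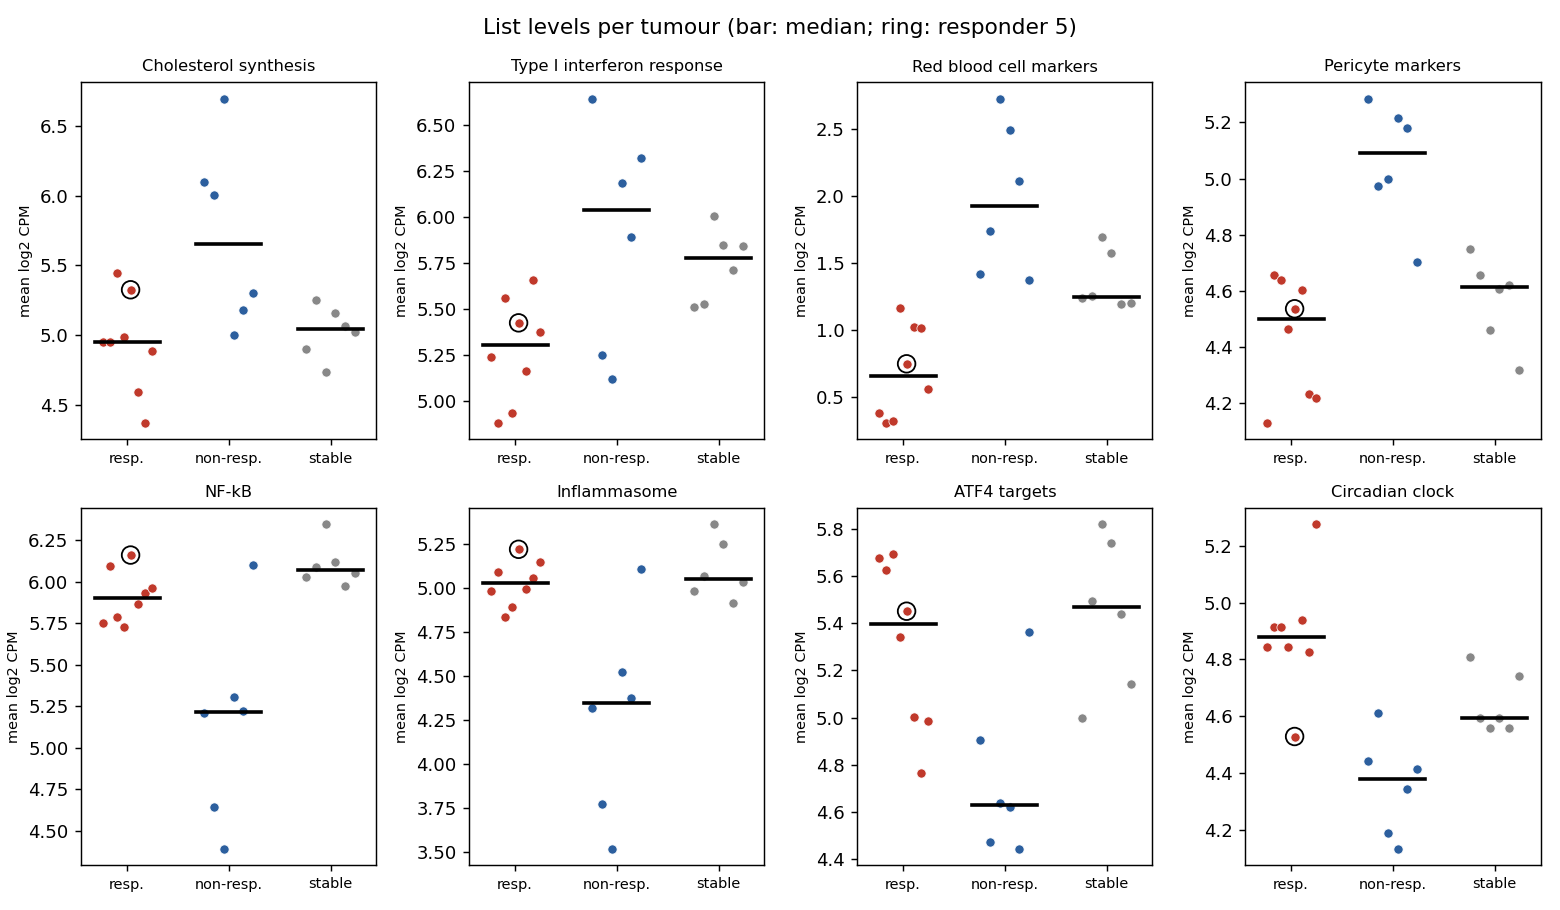
Level of 8 gene lists (mean log2 CPM, vertical) in each of 8 responders, 6 non-responders and 6 stable tumours, with bars at the medians and responder 5 ringed. Red blood cell and pericyte markers separate responders from non-responders without overlap; for NF-kB, non-responder 6 lies within the responder range of 5.73 to 6.16.

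Stress and signalling lists changed in part. ATF4 is the factor of the integrated stress response, which cells use when amino acids are short or proteins misfold. Of 20 targets, 9 were called higher (median 0.43, or 0.41 with the share as a covariate). Slc7a11, the cystine importer, ranged from 80.6 to 405 CPM (median 134) in responders and from 6.75 to 167 CPM (median 21.4) in non-responders. The groups overlapped through non-responder 6, and the log2 fold change was 1.97 (SE 0.59, adjusted p = 0.00931), or 3.33 without that tumour. Under the covariate it was 2.14 and just missed the threshold (adjusted p = 0.05004). Chac1, which degrades glutathione, was at 2.49 (SE 0.71, adjusted p = 0.00701) and was lower without responder 1, at 1.60. It was at 0.65 (adjusted p = 0.525) with the share as a covariate, and was not called without the 4 responders of lowest share, at 1.58. In the circadian clock, 8 of 20 genes were higher and 1 lower (median 0.32). Per2, a repressor in the clock loop that glucocorticoids and light also induce, ranged from 14.0 to 37.0 CPM (median 27.3) in responders and from 2.21 to 12.9 CPM (median 6.10) in non-responders. The gene (ENSMUSG00000055866.9) lies on chromosome 1, 91415982 to 91459324, minus strand, of GRCm38. All 8 responders were above all non-responders, with responder 5 the lowest of them. The fitted log2 change was 1.91 (SE 0.32, adjusted p = 0.000117), or 1.74 (adjusted p = 0.0152) with the share as a covariate. Per1, its paralog, was at 1.69 (SE 0.38, adjusted p = 0.00123), or 1.64 (adjusted p = 0.0387) with the share as a covariate. Responder 5, at 25.6 CPM, lay within the Per1 range of non-responders, 20.6 to 58.6 CPM. In stable tumours Per1 was not called, at 0.15. The clock list level of responder 5, at 4.53, was below the highest non-responder, at 4.61, while the other 7 responders were above it. In stable tumours 1 of the 20 clock genes was called higher, against 8.18% of all genes. The labels do not tell at which hour tumours were taken.

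Immediate early genes of the AP-1 and EGR families had 6 of 25 higher (24%, near the 22.3% over all genes) and 0 lower. Fosl2, an AP-1 subunit, was above all non-responders in all 8 responders, at 1.00 (SE 0.23, adjusted p = 0.00131). Feedback targets of MAPK signalling, the growth pathway active in most melanomas, had 9 of 20 lower and 3 higher. Dusp4, a phosphatase of that pathway, ranged from 45.9 to 92.1 CPM (median 69.6) in responders and from 69.5 to 268 CPM (median 117) in non-responders. Only 4 of 8 responders were below every non-responder, and the log2 fold change was -0.96 (SE 0.22, adjusted p = 0.00124). Spred3, an inhibitor of the same pathway, was higher, at 1.40 (SE 0.24, adjusted p = 0.000155). Responder 5, at 12.5 CPM of Spred3, lay below the highest non-responder, at 16.9 CPM, and the other responders lay above every non-responder. The p53 targets were divided, with 8 of 32 higher and 8 lower. Plk2, a kinase among those targets, ranged from 45.6 to 107 CPM (median 92.0) in responders and from 162 to 284 CPM (median 182) in non-responders. The groups did not overlap, with a log2 change of -1.17 (SE 0.16, adjusted p = 2.21e-05) and -1.20 (adjusted p = 0.00459) with the share as a covariate. Hypoxia targets were divided as well, with 6 of 28 higher and 5 lower. Pfkfb3, a stimulator of glycolysis, was above all non-responders in all 8 responders, at 1.25 (SE 0.22, adjusted p = 0.000201). Car9, a carbonic anhydrase induced by low oxygen, was lower, at -2.26 (SE 0.50, adjusted p = 0.00102), and its call was lost with the share as a covariate, at -2.01 (adjusted p = 0.0622).

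Matrix genes were mixed. Of 27 metalloproteinases and their inhibitors, 8 were higher and 3 lower. Mmp13, a collagenase, ranged from 12.3 to 186 CPM (median 23.5) in responders and from 3.47 to 20.2 CPM (median 8.60) in non-responders. The highest value was that of responder 2, and 6 of 8 responders were above every non-responder. The log2 fold change was 2.34 (SE 0.58, adjusted p = 0.00255), or 1.59 without responder 2. Glycoproteins and proteoglycans of the matrix had 4 of 54 higher and 20 lower, with a median of -0.29 that became 0.03 with the share as a covariate. Tnn, a tenascin, was higher, at 1.65 (SE 0.39, adjusted p = 0.00182) and 2.09 (adjusted p = 0.00889), and Fbln5, which organises elastic fibres, was lower, at -1.79 (SE 0.28, adjusted p = 7.52e-05) and -1.07 (adjusted p = 0.0351). Thbs1, which encodes thrombospondin 1, an inhibitor of vessel growth, was chosen after its values were seen. Thbs1 ranged from 981 to 5776 CPM (median 2057) in responders and from 474 to 1696 CPM (median 1087) in non-responders. It changed by 1.46 (SE 0.37, adjusted p = 0.00263), and it was among the 11 genes called higher with the share as a covariate and without responder 1, at 2.24, as was Tnn at 2.50. Collagens had 7 of 40 higher and 10 lower (17.5% and 25%). In the TGF-beta and BMP pathway 11 of 40 were higher and 9 lower (27.5% and 22.5%). Over all genes these shares were 22.3% and 25.7%. Inhba, an activin subunit, was at 2.03 (SE 0.42, adjusted p = 0.000622), and Gdf15, a stress cytokine, at -3.31 (SE 0.68, adjusted p = 0.000594). Gdf15 was at -2.61 without non-responder 3, and its call was lost with the share as a covariate, at -2.92 (adjusted p = 0.0931).

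Across all genes, those called in the same direction without and with the share as a covariate were ranked by fold change, with a mean level of 10 CPM or more across the 14 tumours required. The set-aside lists were left out, and 632 genes were higher and 652 lower by that rule. Among the 10 highest were Lcn2, Slpi, Csmd1, Nos2, Cd300lf, Mmp13, Stra6l, Csf2rb2 and Rab44. Csmd1, a complement regulator of the cell surface, ranged from 25.0 to 246 CPM (median 48.7) in responders and from 2.16 to 16.2 CPM (median 7.71) in non-responders. The gene (ENSMUSG00000060924.15) lies on chromosome 8, 15892537 to 17535586, minus strand, of GRCm38. All 8 responders were above all non-responders. The log2 fold change was 3.30 (SE 0.51, adjusted p = 6.42e-05), or 3.41 (adjusted p = 0.00444) with the share as a covariate, and 3.70 without responder 1 as well, where it and Rab44 were the 2 of these 20 genes still called. Cd300lf, an inhibitory receptor of myeloid cells, ranged from 59.4 to 146 CPM (median 79.5) in responders and from 4.10 to 46.1 CPM (median 12.8) in non-responders. Levels did not overlap between the groups, at 2.41 (SE 0.41, adjusted p = 0.000129), or 3.05 without non-responder 6. Csf2rb2, a receptor chain for interleukin 3 with a close paralog, ranged from 41.0 to 184 CPM (median 106) in responders and from 4.59 to 40.3 CPM (median 27.1) in non-responders, with a log2 change of 2.19 (SE 0.38, adjusted p = 0.000163). Lcn2, a neutrophil protein that binds siderophores, was high in a few tumours only: its median was 1.50 CPM over responders and 1.10 CPM over non-responders, with 98.9 CPM in responder 2. Its log2 fold change of 3.86 was 2.17 without that tumour. Slpi, a protease inhibitor of neutrophils and epithelia, was likewise at 194 CPM in responder 2 and at a median of 6.83 CPM, with a log2 fold change of 3.37, or 1.75 without it. Neither Lcn2 nor Slpi was called by limma on log2(RPKM + 1), at 1.12 and 1.62. Rab44 and Stra6l were at 2.17 and 2.21 on the log2 scale, and Stra6l at 2.84 without non-responder 6. For Stra6l responder 5, at 9.21 CPM, lay below non-responder 6, at 10.8 CPM.

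The 10 lowest were Ptgds, Cited1, Cyp4b1, Car6, Capn6, Igsf11, Esm1, Enho, Lamc3 and Cma1. Ptgds, a prostaglandin D synthase, ranged from 0 to 6.59 CPM (median 1.31) in responders and from 2.62 to 261 CPM (median 63.4) in non-responders. Only 6 of 8 responders were below every non-responder, and the log2 fold change was -5.57 (SE 0.89, adjusted p = 9.31e-05). It was -4.89 without non-responder 1 and -6.30 without responder 2. Cited1, a transcriptional cofactor of melanocytes, ranged from 0 to 3.15 CPM (median 0.594) in responders and from 1.34 to 111 CPM (median 29.0) in non-responders, with a log2 change of -5.28 (SE 0.83, adjusted p = 7.46e-05). Igsf11, an adhesion molecule that binds the checkpoint receptor VISTA, ranged from 1.10 to 6.56 CPM (median 3.09) in responders and from 8.98 to 60.8 CPM (median 24.9) in non-responders. The gene (ENSMUSG00000022790.14) lies on chromosome 16, 38892671 to 39027159, plus strand, of GRCm38. All 8 responders were below all non-responders, at -2.92 (SE 0.40, adjusted p = 2.21e-05), or -2.66 (adjusted p = 0.0149) with the share as a covariate. Car6, a secreted carbonic anhydrase, ranged from 6.30 to 18.6 CPM (median 8.53) in responders and from 23.5 to 315 CPM (median 66.4) in non-responders. The groups did not overlap, at -3.22 (SE 0.50, adjusted p = 7.36e-05). Non-responder 3 had the highest level of Car6, and without it Car6 was at -2.42, Cited1 at -4.64, Cyp4b1 at -2.90 (from -4.04) and Enho at -2.10 (from -2.71). For Ptgds, non-responders 1, 2 and 3 were at 113 to 261 CPM and non-responders 4, 5 and 6 at 2.62 to 13.6 CPM. Cited1 divided the same tumours, at 52.8 to 111 CPM against 1.34 to 5.32 CPM. So did Capn6, Enho, Igsf11 and Car6, and narrowly Cyp4b1 and Cma1, while Esm1 and Lamc3 did not. The level of the set-aside pigment genes divided them too, at 7.00 to 7.95 against 4.69 to 5.48, and its part was not tested. Esm1, which encodes endocan, a product of endothelial tip cells, ranged from 0.887 to 9.89 CPM (median 3.05) in responders and from 15.3 to 42.1 CPM (median 19.7) in non-responders. It too was without overlap, at -2.77 (SE 0.48, adjusted p = 0.000162). Lamc3, a laminin chain, and Capn6, a calpain-like protein, were at -2.70 and -3.14. In stable tumours each of these 20 genes had the same sign and 18 were called, against 8.18% higher and 10% lower of all genes. The 20 were chosen by their distance from the same non-responders, so this overlap is partly built in and is no independent support.

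**Figure D4:**
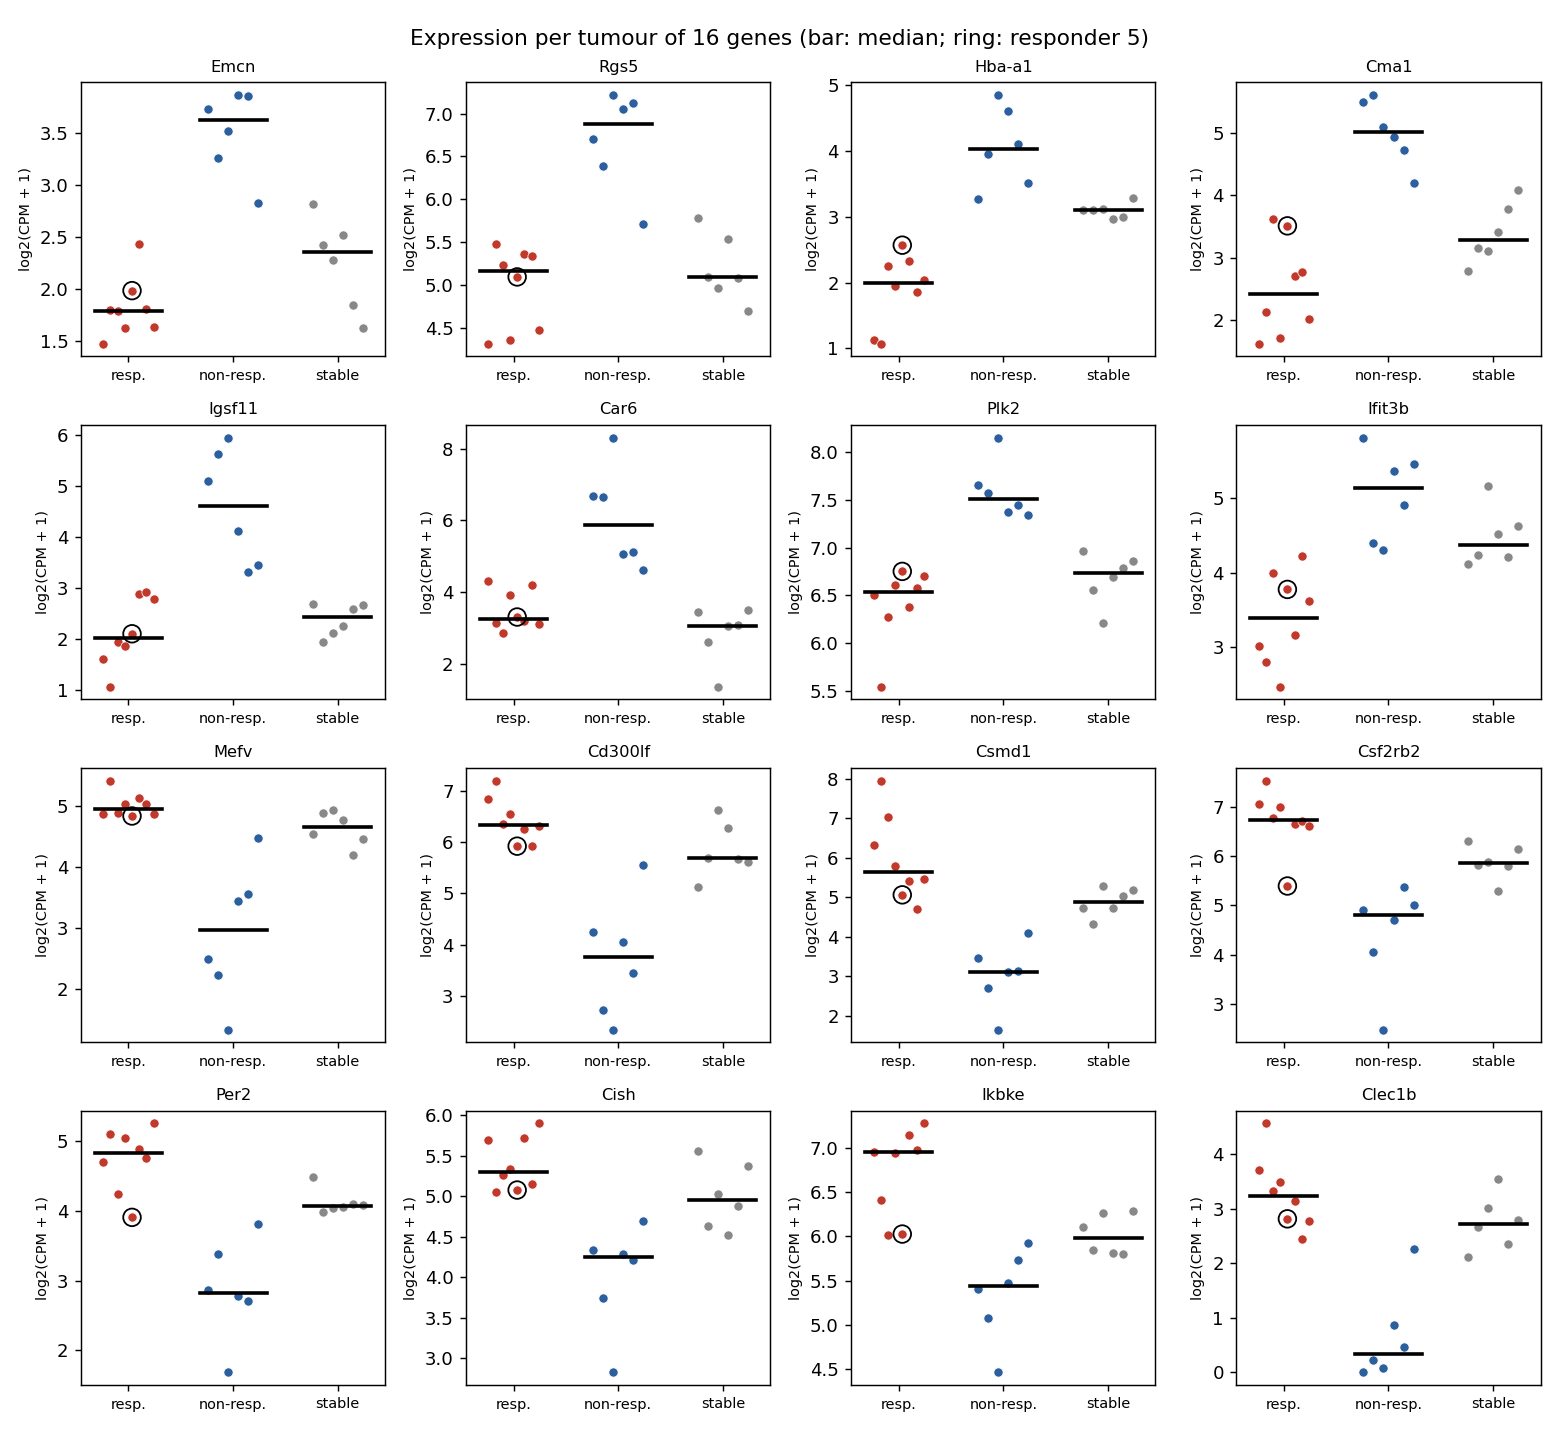
Expression of 16 genes as log2(CPM + 1) (vertical) in each responder, non-responder and stable tumour, with bars at the medians and responder 5 ringed. The upper 8 genes are lower in all 8 responders than in any of the 6 non-responders, and the lower 8 genes are higher in all 8.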

How the data were processed

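RNA libraries of 25 tumours were used: 8 responders, 6 non-responders, 6 stable tumours and 5 under IgG2b. The authors deposited estimated counts (expected counts) for 55450 genes, with 5.64% of values not whole. The submitters' processing notes name bcl2fastq 2.17, Trimmomatic, STAR 2.5.1, RSEM 1.2.22 and build mm10, without role or order. Per the labels, the molecule was polyA RNA but the library kit was one for stranded total RNA, and these statements differ. The authors also deposited RPKM values (reads per kilobase and M reads) for 19518 unique symbols. No 2 tumours of a group shared a library, since the lowest chi-square per degree of freedom between them was 17.1.

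Counts were rounded; the design had foreseen whole numbers. The 21951 protein-coding genes of GENCODE M21 (GRCm38) were kept, so library size is the protein-coding count. After filterByExpr 14881 remained, scaled by TMM. All 25 tumours were fitted with 4 group means in edgeR 4.0.16 (R 4.3.3), by robust quasi-likelihood tests without covariate. Adjusted p-values are two-sided, Benjamini-Hochberg over these genes, and measure the spread between tumours, 1 per mouse. In simulated counts for responder minus non-responder (14724 genes, 200 of them changed), the fit found 67% of 2-fold and 92% of 4-fold changes, with 4.22% false calls. With the share as a covariate it found 52% and 86%, with 4.17% false. No effect of the share on any gene was simulated, so these rates do not measure false calls from library composition. List levels used a prior count of 2.

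The members and lists were chosen with earlier results of these data known. Named genes were, per list, called genes of at least 5 CPM with the largest fold (2 in the more frequent direction, 1 in the other), and a list's defining gene. Over all genes, predicted genes, receptor segments and ribosomal proteins were left out of the ranking. A gene of that ranking is not reported here. Alternatives were DESeq2 1.42.0, limma 3.58.1 on log2(RPKM + 1), RLE size factors, library size from all genes, no filter or a stricter one (1 CPM in 8 tumours, mean count 50), removal of length and GC trends or of mitochondrial mRNAs, only the 14 tumours, and single tumours left out.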

Additional observations from a re-analysis of the deposited data

Results flagged for a closer look

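Of 314 checks of 1 group for 1 list level, gene or library measure, 44 had a tumour set apart from the rest of its group by Dixon's criterion at 95%. The 5% that this criterion allows by chance holds for normally distributed values. Genes were checked as CPM without a log scale, so the 44 cannot be read against 5%. The checks share tumours and genes, so they are not independent.

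Responder 5, whose protein-coding share lay among the non-responders, stood apart from the other responders in list levels of the TCA cycle (6.34), fatty acid oxidation (5.43), chromatin remodelling (6.41), MHC class I presentation (8.64) and MHC class II presentation (8.69). It also stood apart for Atp5b (930.0 CPM), Psma6 (86.9 CPM), Snrpf (27.1 CPM), Kdm6b (16.1 CPM) and Lyve1 (29.0 CPM).

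Responder 2 was the highest responder, apart from the rest, for Mefv (41.9 CPM), Cxcr4 (126 CPM), Mmp13 (186 CPM), Slc7a11 (405 CPM), Fosl2 (277 CPM), Clec1b (22.6 CPM), Csmd1 (246 CPM), Lcn2 (98.9 CPM), Slpi (194 CPM) and Ptgds (6.59 CPM). Responder 7 was so for Esm1 (9.89 CPM), Lamc3 (14.2 CPM), Kdr (47.6 CPM) and Tie1 (25.6 CPM), and responder 6 for Emcn (4.42 CPM). Responder 3 was lowest in the p53 target level (4.30) and highest for Car9 (8.75 CPM). Responder 1 was lowest in the skeletal muscle marker level (2.82) and highest for Chac1 (93.8 CPM).

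Non-responder 6 stood above the other non-responders for Il1b (43.2 CPM), Tnf (31.4 CPM), Nos2 (142 CPM), Inhba (58.3 CPM), Slc7a11 (167 CPM), Clec1b (3.78 CPM), Hk3 (120 CPM), Mertk (90.4 CPM), Cd300lf (46.1 CPM) and Stra6l (10.8 CPM). Non-responder 3 stood above them for Atp5b (2638 CPM), Nsdhl (85.8 CPM), Fads2 (325 CPM), Plk2 (284 CPM) and Car6 (315 CPM).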

How the results depend on the processing

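At an adjusted p under 0.05, responders and non-responders differed in 7139 genes, and between 5357 (only the 14 tumours) and 7668 (DESeq2) under 9 other choices of tool, scaling, filter, trend removal or tumours. With the share as a covariate 1721 genes were called (866 higher, 855 lower), and without the 4 responders of lowest share 3351 (1734 higher, 1617 lower). A 2-fold minimum left 162 genes (43 higher, 119 lower), so that 26.5% of calls were higher against 46.4% without the minimum. Leaving out 1 tumour gave 5908 (without non-responder 3) to 8092 (without responder 5). The covariate fit was the least stable: it called 62 genes in the 14 tumours alone, and 34 (without responder 1) to 3044 (without non-responder 6) with 1 tumour left out, both checks chosen after seeing the data. It gave 690, 986 and 1132 without responders 2, 6 and 8, 2765 without responder 5, and 1065, 848 and 952 without non-responders 1, 2 and 3; the cause was not tested.

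For the 81 genes printed, the side of the threshold was kept in 1130 of 1134 fits that left out a tumour and in 879 of 967 under other settings, with no reversal. Of the 88 lost calls, 57 were lost to the 2-fold minimum, 16 to the covariate and 10 to leaving out the 4 tumours. List medians moved beyond 1 SD between tumours for 8 of 74 lists with the covariate, 5 with limma on RPKM and at most 2 under any other setting. No paired analysis was possible because the labels carry no replicate numbers shared between outcome groups. Responder 1 had 3.15 M protein-coding counts, the fewest of the 14, so its low genes rest on few counts.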

Other observations

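Further lists were examined that the comparison above does not describe. Their counts are read against the 22.3% called higher and 25.7% called lower over all genes. Of 27 nuclear pore genes, which form the channels between nucleus and cytoplasm, 16 were called lower (median log2 fold change -0.29), and all 8 responders had a list level below every non-responder, although responder 5 (5.67) was just below the lowest of them (5.68). With the share as a covariate 4 were called lower (median -0.18, or -0.11 without responder 1 as well). Purine and pyrimidine synthesis had 12 of 23 genes lower (median -0.31), with 3 called under the covariate (median -0.27, or -0.08 without responder 1 as well). Zinc finger genes of the C2H2 type, a family of mostly transcriptional repressors, had 92 of 353 higher and 28 lower (median 0.16). The share called higher was 26.1%, near the 22.3% over all genes, and the share called lower was 7.93%. Under the covariate 30 were higher and 6 lower. The median under the covariate was 0.21, or 0.05 without responder 1 as well. In stable tumours 12 were higher and 23 lower (median -0.05), against 8.18% and 10% of all genes. Notch pathway genes had 8 of 28 higher and 3 lower, and their median of 0.26 was 0.02 under the covariate.

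Lysosomal genes had 3 of 49 higher and 12 lower in responders, or 24.5% lower, near the 25.7% over all genes. In stable tumours, fitted against the same non-responders, 17 were higher (median 0.41), against 8.18% of all genes. The difference between these outcomes was not tested. The median in responders was -0.09, or 0.16 under the covariate, and responder 5 had the highest level of the 14 tumours, at 7.59. Glutathione and oxidant defence genes had 6 of 48 higher and 16 lower, and their median of -0.27 turned to 0.04 under the covariate and to 0.29 without responder 1 as well. Of 17 fibroblast markers 4 were lower (23.5%, near the 25.7% over all genes, median -0.40). Under the covariate none was called (median 0.16) and 3 were under 0.05 before adjustment, in edgeR. Schwann cell markers had 6 of 12 lower (median -0.49, or -0.28 with 1 called under the covariate and -0.19 without responder 1 as well). Integrins were divided, with 5 of 26 higher and 5 lower. B and plasma cell markers had 2 of 13 higher (median 1.15), and natural killer cell markers 1 of 12 (median 0.63).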
